A study of Mus musculus with 6 samples.

Results

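The protein kinase C (PKC) isoforms are encoded in mouse by a small family of serine/threonine kinase genes, and 8 of them, *Prkca*, *Prkcb*, *Prkcd*, *Prkce*, *Prkch*, *Prkci*, *Prkcq* and *Prkcz*, were examined here. Members were defined by symbol, as the rows of the deposited count table whose gene name was one of these 8 symbols. The symbols were chosen with earlier results of these data known. They are 8 of the 31169 genes in the table, and all 8 were among the 17707 genes with enough reads to test. Counts came from RNA sequencing of whole retina in 3 saline-injected and 3 microbead-injected samples, all from C57BL/6 mice. The study's methods describe male mice. Mice were injected at 1 month of age, and retinas were collected 4 weeks later, at 2 months. The microbead group received beads of 15 µm diameter in the anterior chamber, which raise intraocular pressure (IOP) by hindering the outflow of aqueous humor. The control group received saline by the same route, so both groups carried the injection itself. Injections were given to both eyes of a mouse, and the labels do not tie retinas to animals. The p-values therefore describe the spread between these samples, which may in part be technical.

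PKC relays signals from receptors that activate phospholipase C, the enzyme that splits a membrane lipid into diacylglycerol and inositol trisphosphate. Conventional isoforms (here *Prkca* and *Prkcb*) require both diacylglycerol and Ca2+, Ca2+-independent isoforms (*Prkcd*, *Prkce*, *Prkch* and *Prkcq*) require diacylglycerol alone, and atypical isoforms (*Prkci* and *Prkcz*) respond to neither and act largely through protein partners that set cell polarity. In retina PKCα is the standard marker of rod bipolar cells. PKC activity is also known to influence how much Na/K-ATPase stays at the cell surface, and that pump was the subject of the study.

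To show how close the members are where they share the most, the coding bases of the activation loop were read for each gene from the reference transcripts (GENCODE vM21, GRCm38). The kinase PDK1 phosphorylates this loop in every isoform. The windows cover only part of the loop, and they begin just after the phosphorylated threonine. Each window spans 36 bases, 5′ to 3′ on the coding strand, and capitals mark the bases that differ from *Prkca*.
Prkca: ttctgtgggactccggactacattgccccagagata
Prkcb: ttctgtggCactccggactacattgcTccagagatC
Prkcd: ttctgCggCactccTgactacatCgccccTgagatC
Prkce: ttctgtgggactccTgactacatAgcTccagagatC
Prkch: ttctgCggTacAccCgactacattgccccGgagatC
Prkcq: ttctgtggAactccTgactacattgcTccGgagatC
Prkci: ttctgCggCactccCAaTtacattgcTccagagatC
Prkcz: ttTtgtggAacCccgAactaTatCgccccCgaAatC
The windows differed from that of *Prkca* at 3 bases in *Prkcb*, 4 in *Prkce*, 5 in *Prkcq*, 6 in both *Prkcd* and *Prkch*, 7 in *Prkci* and 9 in *Prkcz*. The atypical pair thus stood farthest from *Prkca* even in this conserved loop. No stretch of 100 bases, about the length of 1 sequenced read end, was shared between any of the 8 genes. Stretches of 31 bases were shared only between *Prkca* and *Prkcb*, 8 in all.

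To determine whether elevated IOP was accompanied by a change in transcripts of the PKC family, expression was compared between microbead-injected and saline-injected retina. *Prkce*, which encodes PKCε, fell by 52.4% in microbead-injected retina, and it was the 1 isoform of 8 that passed the test at an adjusted p under 0.05. Of all genes tested, 12.8% passed this threshold and 6.31% did so in the lower direction. The other 7 isoforms did not pass, although 7 of the 8 fitted changes were negative. The median log2 fold change over the 8 isoforms was -0.22, as compared to -0.03 over all genes tested, of which 52.1% had a negative fitted value. The plot of counts per 1000000 counted reads (CPM) by library shows each isoform in each retina.

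**Figure D1:**
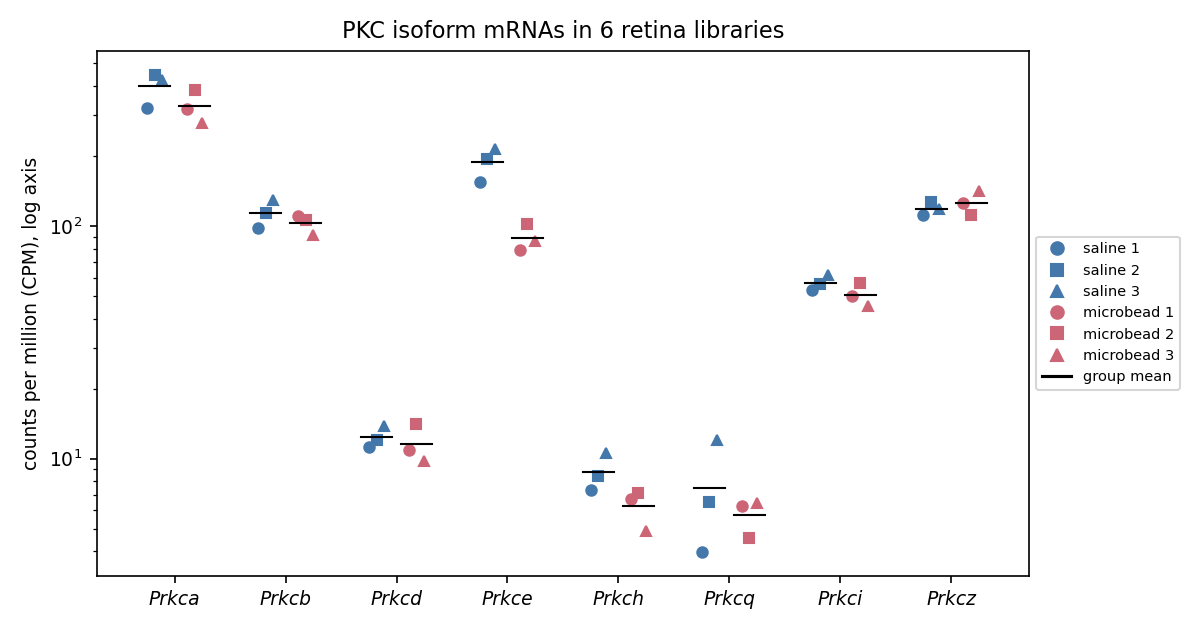
CPM of the 8 PKC isoforms (log axis) in the 3 saline-injected and 3 microbead-injected retina libraries, 1 point per library, with a bar at the mean of each group. The *Prkce* points of the groups are far apart, between 155 and 214 CPM in saline and between 79.1 and 102 CPM in microbead retina, and the points of most other isoforms are interleaved.

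Total counts ran from 36085737 to 46481382 in the saline libraries and from 13574949 to 19834366 in the microbead libraries, so that 3 counts correspond to between 0.0622 and 0.216 CPM. All CPM values were scaled for library size and composition. The library names in the sample descriptions begin with 1 prefix in the saline group and another in the microbead group, so whatever the prefixes stand for and the effect of injection cannot be told apart. Markers of rods, the most numerous cells of mouse retina, summed to 71209 ± 11608 CPM in saline and 66909 ± 7161 CPM in microbead retina (SD, n = 3 each), and 1 of 10 was higher and 1 lower. No gene of the ganglion cell, amacrine, cone bipolar or pigment epithelium lists passed the test. In microbead retina 4 of 10 Müller glia, 4 of 10 endothelial and 1 of 10 microglia markers were lower. Of all genes tested, 6.46% were higher and 6.31% were lower. In whole retina, fewer cells of a type and less RNA per cell cannot be told apart.

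Among conventional isoforms, *Prkca* was measured at 322, 447 and 426 CPM in saline 1, 2 and 3 and at 319, 384 and 278 CPM in microbead 1, 2 and 3. The lowest saline library was nearly level with microbead 1, and the groups overlapped. The log2 fold change was -0.28 (SE 0.20), with a 95% interval from -0.73 to 0.16 and an adjusted p of 0.362 in edgeR's quasi-likelihood test. *Prkca* (GRCm38 chromosome 11, 107933387 to 108343928, minus strand) has 30 exonic bases on the opposite strand to exons of *Apoh*.

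Because PKCα marks rod bipolar cells, *Prkca* was set beside 14 other markers found in rod bipolar cells. Some, such as *Trpm1*, are shared with other ON bipolar cells, so a ratio to this list is not a level per rod bipolar cell. The summed level of the 14 was 1140, 1197 and 1297 CPM in saline and 1305, 1498 and 1220 CPM in microbead retina, with overlapping groups. *Prkca* amounted to 28.2, 37.4 and 32.8% of that sum in saline and to 24.4, 25.7 and 22.8% in microbead retina, which did not overlap. No test was made of this ratio, and 37.8% of all genes tested had CPM that did not overlap between groups. The ratio also depends on the marker sum, whose mean was 1211 CPM in saline and 1341 CPM in microbead retina. Of the 14 markers, 2 were higher, 1 was lower and 11 did not pass, as compared to 6.46% higher and 6.31% lower of all genes tested. Their log2 fold changes ran from -1.20 to 1.22, with a median of 0.12. The most abundant were *Trpm1*, the cation channel of the ON bipolar light response, at 264 ± 42.4 CPM in saline and 241 ± 71.5 CPM in microbead retina, and *Gpr179*, an orphan receptor of the same cascade, at 197 ± 18.4 and 222 ± 49.9 CPM (SD, n = 3 each). Neither passed the test.

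*Prkcb*, which encodes the PKCβ splice forms known from studies of diabetic retinal disease, was present at 98.5, 114 and 130 CPM in saline and at 111, 106 and 91.8 CPM in microbead retina. All 3 microbead values lay below the highest saline value, but the groups overlapped. The difference was -0.15 on the log2 scale (SE 0.17, 95% interval -0.54 to 0.24), with an adjusted p of 0.599 by edgeR. *Prkcb* lies on chromosome 7, from 122288751 to 122634402 on the plus strand.

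Among Ca2+-independent isoforms, *Prkce* had 155, 194 and 214 CPM in saline 1, 2 and 3, and 79.1, 102 and 86.4 CPM in microbead 1, 2 and 3. Every microbead library was below every saline library, by at least the gap between 102 and 155 CPM. The group means were 187 ± 30.1 CPM in saline and 89.2 ± 11.7 CPM in microbead retina (SD, n = 3 each). PKCε is a neuronal and cardiac isoform known for its part in ischemic preconditioning and neurite outgrowth.

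The log2 fold change of *Prkce* was -1.07 (SE 0.19, 95% interval -1.49 to -0.65), with an unadjusted p of 0.000238 and an adjusted p of 0.0149 by edgeR's quasi-likelihood test. Among 17707 genes, 277 had a lower adjusted p and 994 had a more negative fold change. The depth was ample, since even the microbead libraries held 1539, 1415 and 1332 *Prkce* counts. Thinning all libraries to the size of the smallest left the call in place. The call was lost, with the direction kept, without saline 2 (adjusted p = 0.0549) or without microbead 3 (adjusted p = 0.0782), and with any other single library left out it held. Of Müller glia and endothelial markers, 4 of 10 each were lower in microbead retina, as compared to 6.31% of all genes tested. The Müller glia list summed to 5582 to 9336 CPM in saline and 4648 to 5656 CPM in microbead retina, with overlapping groups, and the endothelial list to 471 to 673 and 295 to 443 CPM, without overlap. Their part in the *Prkce* values was not tested. An exact permutation test of 3 against 3 libraries cannot give a p below 0.1.

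*Prkce* is the longest of the 8 loci, at 490135 bases on chromosome 17 (86167785 to 86657919, plus strand), and codes for 737 residues. The 100-base stretches that also occur elsewhere made up 3.87% of its exonic sequence. Of its exons, 472 bases overlap *AC154542.1*, a provisional gene on the same strand that has no row in the table. Whether the annotation used for counting held that gene was not examined, so how reads of this stretch were assigned is not known.

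**Figure D2:**
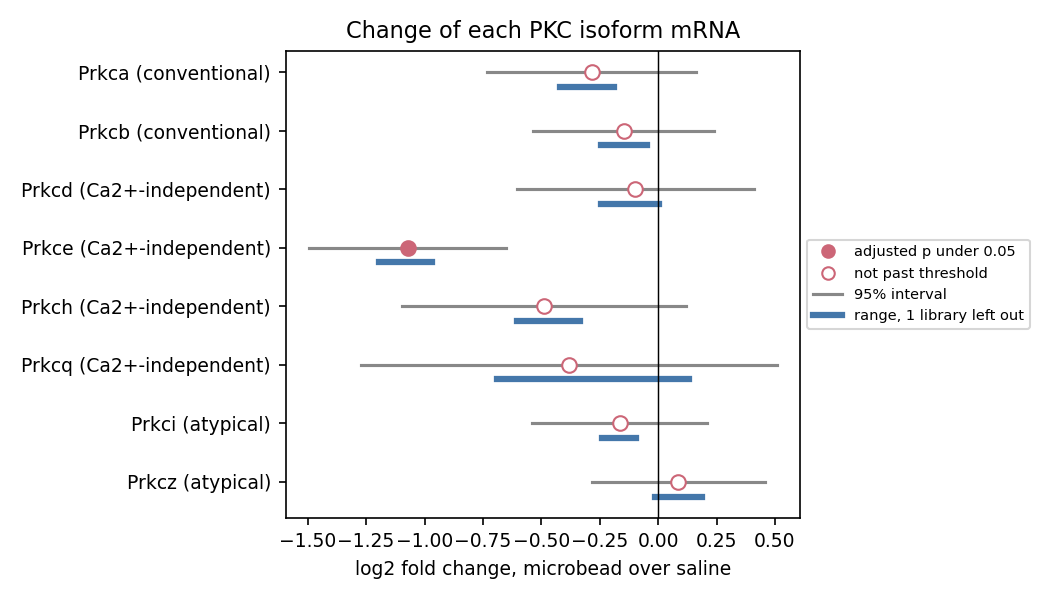
Log2 fold change of each PKC isoform, microbead over saline, with its 95% interval and the range of the fitted values when each library was left out in turn. *Prkce* lies at -1.07 with an interval that does not reach 0, whereas the intervals of the other 7 isoforms span 0.

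The remaining Ca2+-independent isoforms were far less abundant. *Prkcd*, whose kinase is cleaved and activated by caspases during apoptosis, was found at 11.2, 12.01 and 13.8 CPM in saline and at 10.9, 14.1 and 9.73 CPM in microbead retina. The groups overlapped, with microbead 2 above every saline library. Its log2 fold change was -0.10 (SE 0.23, 95% interval -0.61 to 0.41, adjusted p = 0.805 by edgeR).

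*Prkch*, an isoform known from epithelia, was at 7.35, 8.39 and 10.6 CPM in saline and 6.73, 7.14 and 4.87 CPM in microbead retina. Here the groups did not overlap, as was also the case for *Prkce*. Together these are 2 of the 8 isoforms, whereas 37.8% of all genes tested had groups that did not overlap. The log2 fold change of *Prkch* was -0.49 (SE 0.27, 95% interval -1.10 to 0.12) and did not pass (adjusted p = 0.249 by edgeR). The summed level of the endothelial markers was also lower, from 471 to 673 CPM in saline and from 295 to 443 CPM in microbead retina. Of the 10 markers, 4 were lower, as compared to 6.31% of all genes tested. The other 6 did not pass, and fitted changes of both signs occurred among them. The part of endothelial markers in the *Prkch* values was not tested. The most abundant endothelial markers were the vascular endothelial growth factor receptors *Kdr*, at 283 ± 68.9 and 200.5 ± 56.7 CPM (not passed), and *Flt1*, at 152 ± 31.8 and 80.0 ± 18.9 CPM, which fell (log2 fold change -0.93, adjusted p = 0.0310 by edgeR).

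*Prkcq*, whose kinase PKCθ is best known from T cell receptor signaling, was the most variable isoform among the saline libraries. Its values were 3.98, 6.505 and 12.1 CPM in saline and 6.27, 4.54 and 6.42 CPM in microbead retina, so the saline libraries alone spanned the whole range. The log2 fold change was -0.38 (SE 0.40, 95% interval -1.27 to 0.51, adjusted p = 0.547 by edgeR), and its sign turned to 0.13 without saline 3. The coefficient of variation was 55.0% in saline, and the smallest library count was 63. T cell markers were scarce. Of the 8 in the list only 3 had enough reads to test, and none of these passed. Their summed level was highest in saline 1, at 15.9 CPM, where *Prkcq* was lowest, and lay between 6.10 and 7.58 CPM in the other 5 libraries. The 3 tested markers had reads in every library. *Cd3e*, a subunit of the T cell receptor complex named after its values were seen, was not among them. It was at 1.11 CPM in saline 1, at 0.0855 CPM in saline 3, and at 0 in saline 2 and in all 3 microbead libraries.

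Of the atypical isoforms, *Prkci*, whose product PKCι works with the Par polarity proteins, was at 52.9, 56.2 and 61.3 CPM in saline and 49.9, 57.0 and 45.1 CPM in microbead retina. Microbead 2 fell within the saline range and the groups overlapped. The log2 fold change was -0.17 (SE 0.17, 95% interval -0.54 to 0.21, adjusted p = 0.536 by edgeR).

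*Prkcz* was the 1 isoform with a positive fitted change. It encodes PKCζ and, in brain, also the shorter constitutively active form PKMζ from an internal promoter. Its values were 111, 127 and 118 CPM in saline and 125, 111 and 141 CPM in microbead retina, with microbead 2 level with saline 1. The log2 fold change was 0.09 (SE 0.17, 95% interval -0.28 to 0.46, adjusted p = 0.761 by edgeR), and the sign of such a small value was not stable, as it became -0.01 without microbead 3. Of 100-base exonic stretches of *Prkcz* (chromosome 4, 155260129 to 155361361, minus strand), 9.16% occurred elsewhere, including in the related gene *Prkcz2*, so part of its reads is uncertain. *Prkcz2* itself held 276 counts over all 6 libraries. It is not one of the 8 genes described.

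Saline 1 was the lowest saline library for 8 of the 8 isoforms, whereas it was lowest for 32.8% of all genes tested. Microbead 3 was the lowest microbead library for 5 of the 8, as compared to 29.6% of genes. Saline 1 also stood apart in several marker lists. Its summed level was 338 CPM for ganglion cell markers beside 866 to 1278 CPM in the other 5 libraries, 1275 CPM for amacrine markers beside 1550 to 2230 CPM, 10.6 CPM for pigment epithelium markers beside 40.6 to 175 CPM, and 258 CPM for microglia markers beside 61.7 to 135 CPM. The part of these differences in the isoform values was not tested.

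To compare levels between isoforms, CPM was divided by the exon length of each gene in kilobases (CPM per kb). *Prkca* was highest at a mean of 40.3 CPM per kb over the 6 libraries, with a range from 30.9 to 49.7, and held rank 1 in each of the 6 libraries. *Prkcz* (19.3, range 17.6 to 22.4), *Prkce* (19.1, range 10.9 to 29.4) and *Prkcb* (14.2, range 11.99 to 16.9) followed. The range of *Prkce* overlapped those of both its neighbours, so their order was not fixed.

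*Prkci* came next at 9.68 CPM per kb (range 8.12 to 11.04), at rank 5 in each library. *Prkcd* at 2.16 CPM per kb (range 1.76 to 2.54) was at rank 6 in each. *Prkch* at 0.997 CPM per kb (range 0.646 to 1.40) and *Prkcq* at 0.936 CPM per kb (range 0.562 to 1.70) overlapped throughout. The order of levels among the abundant isoforms depended on the length used. Per kb of the longest coding transcript, *Prkcz* came first at 46.3 CPM per kb, ahead of *Prkca* at 43.1 and *Prkcb* at 37.2, and 4 of the 8 isoforms kept their rank.

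By CPM per kb of exon, the place of *Prkce* among the isoforms differed between groups. It held rank 2 in all 3 saline libraries and ranks 4, 3 and 4 in microbead 1, 2 and 3. *Prkcz* held rank 3 in each saline and rank 2 in each microbead library. Per kb of the longest coding transcript, *Prkce* was at rank 4 by its mean over the 6 libraries, at 22.1 CPM per kb. With that length it was below *Prkcb* and above *Prkci* in every library, so the difference in place depended on the length used. By exon length, the share of *Prkce* in the summed level of the 8 isoforms was 21.2, 21.3 and 22.8% in saline and 11.7, 13.7 and 13.4% in microbead retina. These shares are descriptions with no test, and a share must rise for some isoforms where it falls for another.

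**Figure D3:**
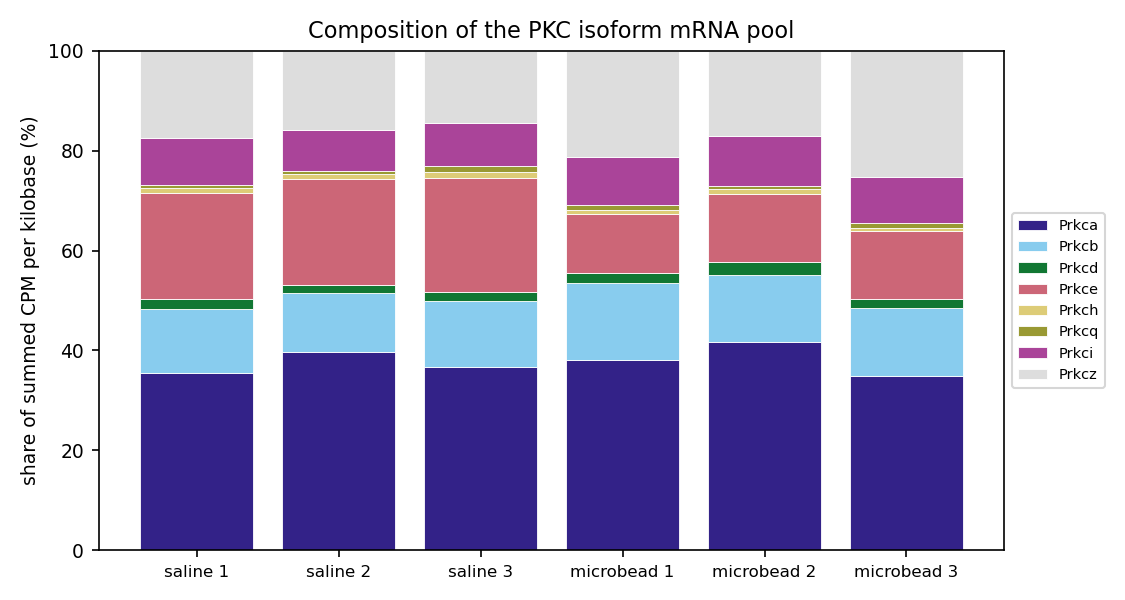
Share of each PKC isoform in the summed CPM per kb of the 8 isoforms, in percent, stacked for each of the 6 libraries. The *Prkce* layer is between 21.2 and 22.8% in saline and between 11.7 and 13.7% in microbead libraries, while *Prkca* takes the largest layer in all 6.

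By class, conventional isoforms made up 49.8 ± 1.52% of the summed level in saline and 52.3 ± 3.51% in microbead retina (SD, n = 3 each). Ca2+-independent isoforms made up 25.5 ± 1.43% and 16.9 ± 1.06%, and atypical isoforms 24.7 ± 2.02% and 30.8 ± 3.65%. The lower share of the Ca2+-independent class was mostly that of *Prkce*. The other 3 of that class summed to 4.46 ± 1.04 CPM per kb in saline and 3.73 ± 0.409 in microbead retina. Their groups overlapped, although microbead 3, at 3.31 CPM per kb, was below the lowest saline library, at 3.57. The atypical sum was 29.0 ± 1.66 CPM per kb in saline and 29.1 ± 1.35 in microbead retina. The sum of all 8 was 118 ± 15.5 and 94.9 ± 7.12 CPM per kb, and without *Prkce* it was 92.6 ± 11.5 and 82.6 ± 5.93.

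Within libraries, the ratio of *Prkce* to *Prkca* counts was 0.481, 0.434 and 0.502 in saline and 0.248, 0.266 and 0.311 in microbead retina. A ratio within a library does not depend on how libraries are scaled.

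The genes whose log2 CPM followed each isoform most closely over the 6 libraries were taken from 15086 genes with a mean of at least 1 CPM. These correlations (Pearson r) are descriptions over 6 points that share groups and depth, and the highest of so many values is high by selection. *Prkce* was followed by *Sel1l* (r = 0.998), an adaptor of endoplasmic reticulum-associated degradation, and *March6* (r = 0.997), a ubiquitin ligase of the same membrane, whose own log2 fold changes were -0.67 and -1.23. *Prkca* was followed by *Nkain3* (r = 0.995), a gene named for interaction with the Na/K-ATPase, and *Csrp3* (r = 0.990). For *Prkcd* the closest were *Rb1* (r = 0.993) and the ON bipolar channel gene *Trpm1* (r = 0.993).

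For *Prkcb* the closest were *Osbpl9* (r = 0.990) and *Hdhd2* (r = 0.988), for *Prkch* they were *Tmem135* (r = 0.996) and *Abcb1a* (r = 0.995), and for *Prkcq* they were *Stau2* (r = 0.994) and *Galnt18* (r = 0.992). *Prkci* was followed closely by *Bmpr1b* (r = 0.993). *Prkcz* had the weakest companions, *Ddn* (r = 0.979), which encodes the dendritic protein dendrin, and *Dclre1b* (r = 0.939).

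To place the isoforms in their pathway, 71 genes that make or remove diacylglycerol, or that prime, anchor or are phosphorylated by PKC, were examined in 7 lists. Of these, 3 were higher and 3 were lower in microbead retina by edgeR's quasi-likelihood test, as compared to 6.46% and 6.31% of all genes tested. The median log2 fold change of the 71 genes was -0.23, with 48 negative (67.6%), beside a median of -0.03 over all genes tested. At an adjusted p under 0.01 in edgeR the number was 0. Of the genes that passed, 5 are described, from 4 of the lists.

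**Figure D4:**
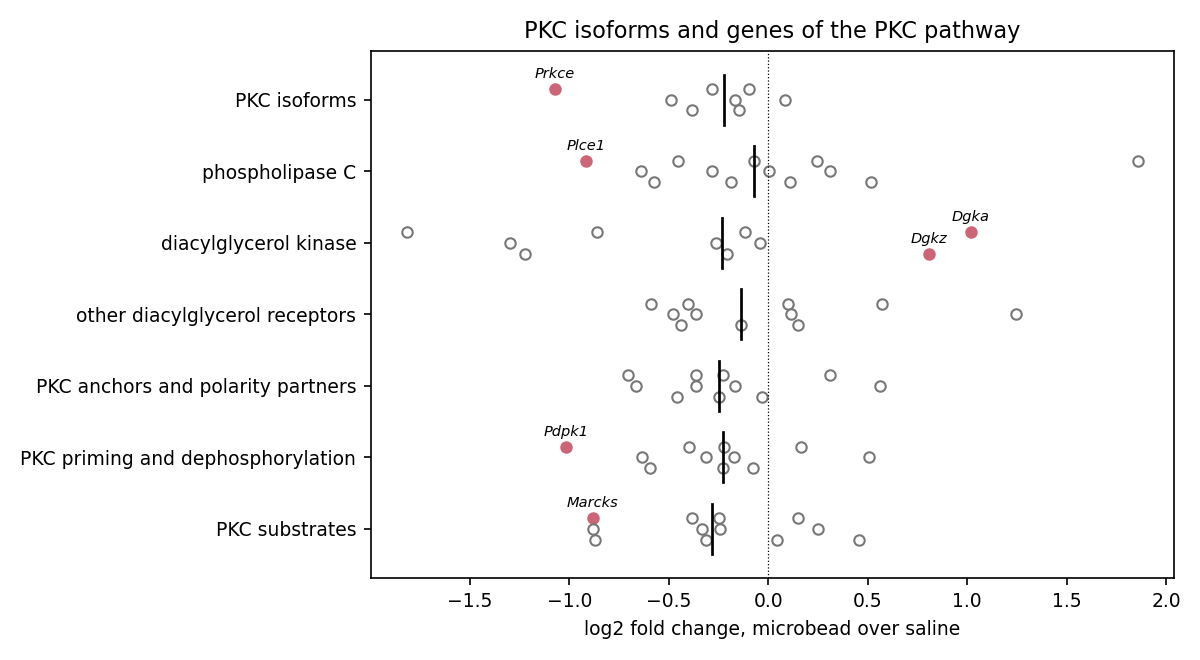
Log2 fold change, microbead over saline, of the PKC isoforms and of the genes of 6 pathway lists, 1 point per gene, with a bar at the median of each group. Filled and named points are the genes that passed the test, among them *Prkce* at -1.07, *Pdpk1* at -1.02 and *Dgka* at 1.02, and the unfilled points are genes that did not pass.

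Upstream of PKC, 1 of 13 phospholipase C genes passed the test, as compared to 12.8% of all genes tested. *Plce1*, encoding the Ras-regulated phospholipase Cε, was at 38.1, 33.1 and 38.5 CPM in saline and 14.5, 25.6 and 18.1 CPM in microbead retina. The groups did not overlap, and the log2 fold change was -0.92 (SE 0.23, adjusted p = 0.0328 by edgeR). The list's median log2 fold change was -0.07. Per kb, the highest of the list were *Plch2*, encoding the Ca2+-sensitive phospholipase Cη2, at 64.6 CPM per kb (log2 fold change 0.52, adjusted p = 0.186 by edgeR) and *Plcd3* at 21.0 CPM per kb (log2 fold change -0.58). *Plcd3* missed the threshold narrowly, with an adjusted p of 0.0501 by edgeR.

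Diacylglycerol kinases, which remove the activator by converting it to phosphatidic acid, had 2 of 10 members higher and none lower by edgeR. Of all genes tested, 6.46% were higher and 6.31% lower. *Dgka* rose from 6.42, 6.98 and 5.70 CPM in saline to 12.3, 11.6 and 14.8 CPM in microbead retina (log2 fold change 1.02, SE 0.23, adjusted p = 0.0248 by edgeR). *Dgkz*, whose kinase is itself a PKC substrate, rose from 85.1, 99.7 and 78.4 CPM to 114, 160 and 186 CPM (log2 fold change 0.81, SE 0.21, adjusted p = 0.0381 by edgeR). In both genes every microbead library was above every saline library. The median log2 fold change of the list was nevertheless -0.23, and the most abundant per kb, *Dgke* at 34.4 and *Dgkd* at 23.6 CPM per kb, had log2 fold changes of -0.26 and -0.21 and did not pass. The largest fitted changes of the list in size were negative, at -1.81, -1.30 and -1.22. They did not pass either (adjusted p = 0.0881, 0.0744 and 0.0720 by edgeR).

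None of the 11 other diacylglycerol receptors passed (median log2 fold change -0.14), and the same held for the 11 anchoring and polarity genes (median -0.25). The leading receptors per kb were *Chn1*, encoding the Rac-inactivating chimaerin α, at 26.2 CPM per kb (log2 fold change 0.15) and *Unc13b*, encoding the vesicle-priming protein Munc13-2, at 13.7 (0.10). The leading anchors were *Sqstm1*, encoding the atypical PKC scaffold p62, at 72.8 CPM per kb (log2 fold change -0.36) and *Rack1*, the receptor for activated C kinase, at 48.2 (-0.37).

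Of 11 genes that prime PKC for activity or dephosphorylate it, 1 was lower, as compared to 6.31% of all genes tested. *Pdpk1*, encoding the kinase PDK1 that phosphorylates the activation loop of PKC, was at 123, 141 and 146 CPM in saline and 58.7, 82.1 and 62.1 CPM in microbead retina. The groups were well apart, with means of 137 ± 11.7 and 67.6 ± 12.6 CPM (SD, n = 3 each) and a log2 fold change of -1.02 (SE 0.19, adjusted p = 0.0156 by edgeR). This is close in size to the change of *Prkce*, though the difference between the 2 genes was not tested. The chaperone *Hsp90aa1*, which PKC needs to mature, was the most abundant of the list at 328 CPM per kb. It was at 1584, 1417 and 1644 CPM in saline and 1210, 1058 and 812 CPM in microbead retina, without overlap, and did not pass (log2 fold change -0.59, adjusted p = 0.0753 by edgeR). Its relative *Hsp90ab1*, at 238 CPM per kb, had a log2 fold change of -0.08.

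Among 12 PKC substrates, 1 was lower, as compared to 6.31% of all genes tested. *Marcks*, encoding the membrane- and actin-binding protein that PKC phosphorylation releases from the membrane, was at 167, 203 and 262 CPM in saline and 123, 114 and 105 CPM in microbead retina. The groups did not overlap, and the log2 fold change was -0.88 (SE 0.20, adjusted p = 0.0253 by edgeR). The synaptic gene *Snap25*, among the most abundant substrates per kb at 220 CPM per kb, had a log2 fold change of 0.25 and did not pass.

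**Figure D5:**
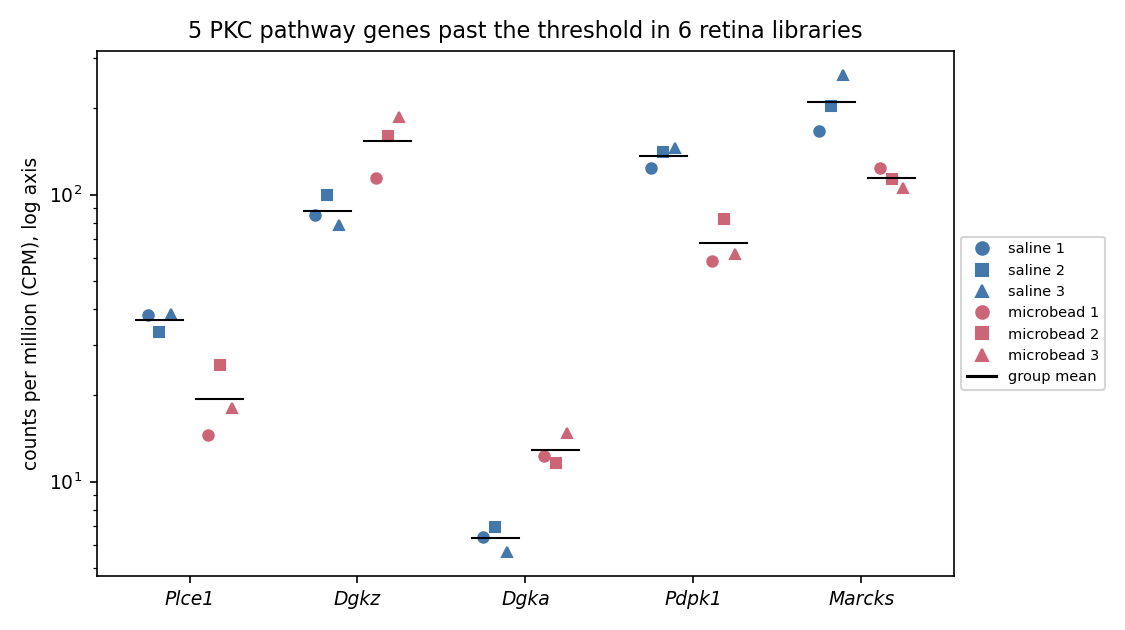
CPM of 5 pathway genes that passed the test, in the 3 saline and 3 microbead libraries, 1 point per library, with a bar at the mean of each group. *Plce1*, *Pdpk1* and *Marcks* are lower and *Dgka* and *Dgkz* are higher in every microbead library than in any saline library.

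These 5 calls also depended on single libraries. Without saline 2 or without microbead 3 none of them passed in edgeR, with adjusted p from 0.0596 to 0.0921 and from 0.0831 to 0.148. *Pdpk1* passed with any other library left out. *Dgkz* was lost without saline 1 (0.0610), saline 3 (0.0831) or microbead 2 (0.0929), and *Plce1* without saline 3 (0.0594) or microbead 1 (0.0761). *Dgka* was lost without saline 3 (0.0507), microbead 1 (0.0548) or microbead 2 (0.0515), as was *Marcks* (0.0507, 0.0578 and 0.0801). Each of the 5 kept its direction throughout.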

How the data were processed

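Raw read counts per gene were deposited by the authors for 6 whole-retina libraries (3 saline, 3 microbead). The study's methods describe stranded polyA libraries and paired-end reads, and the submitters' processing notes name STAR 2.5.3a, the GRCm38.p5 build and featureCounts 1.15.2. The strand setting and the handling of multi-mapping reads in counting are not given in the sources used here. The same table holds the authors' own DESeq2 1.14 comparison (mean normalized signal, log2 fold change, linear fold change and p-value columns), and none of these deposited columns was used.

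Genes passing filterByExpr (minimum count 10, minimum total 15) were fitted with edgeR 4.0.16 in R 4.3.3: TMM scaling, quasi-likelihood test of microbead against saline in all 6 libraries, no covariates, Benjamini-Hochberg adjustment over all 17707 genes, threshold 0.05. Intervals are 95% intervals of the fitted change. CPM uses TMM-scaled library sizes of the total counts. Lengths and positions came from GENCODE vM21, which is later than the annotation used for counting. The activation loop windows were located by translating the reference coding sequences. No library was a repeat of another, since counts of replicates differed far beyond what sampling gives (chi-square over its degrees of freedom at least 20.1).

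Members and gene lists were chosen with earlier results of these data known. The text names the 8 members; in each pathway list the genes that passed (the 4 largest changes where more passed) and the 2 highest per kb; in each marker list at most 2 of the most abundant; and the 2 genes most correlated with each member. A few genes that this rule selects are not reported here. Alternatives covered scaling, low-count filters, DESeq2 1.42.0, limma 3.58.1 (voom), a replicate block, an offset for GC content and length, a stricter threshold, thinning and leaving out each library. The fits were tested on simulated data.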

Additional observations from a re-analysis of the deposited data

How the results depend on the processing

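*Prkce* kept its direction and passed in 11 of 11 alternatives that used all 6 libraries at the 0.05 threshold, with log2 fold changes from -1.12 to -0.96 and adjusted p from 2.24e-05 (DESeq2) to 0.0412 (replicate block); leaving out 1 library gave -1.20 to -0.97 and an adjusted p from 0.00973 to 0.0782. Among the isoforms the number that passed was 1, except 0 at an adjusted p under 0.01 and 0 to 1 with 1 library left out. Signs turned only with a library left out: *Prkcd* to 0.0038 (range from -0.24) and *Prkcz* to -0.013 (range to 0.19) without microbead 3, and *Prkcq* to 0.13 (range from -0.69) without saline 3. Of the 71 pathway genes (6 passed) the number was 15 with no filter on low counts, 17 with DESeq2, 11 with the GC and length offset, 2 with the replicate block (adjusted p from 0.0606 to 0.06805 for *Plce1*, *Dgkz*, *Dgka* and *Marcks*, which then did not pass, and 0.0414 for *Pdpk1*), 3 with that offset and the block, 0 at an adjusted p under 0.01, and 0 to 13 with 1 library left out. Over all genes (2261 passed) it was 3720 with no filter, 3582 with DESeq2, 905 with the replicate block, 1050 with the offset and the block, 87 at an adjusted p under 0.01, and 46 (without microbead 3) to 2621 (without saline 1). The causes were not tested. The replicate block used the number in the library names, and same-numbered libraries did not deviate together (correlations -0.0351, 0.136 and 0.00997), so the number was not taken as a pairing. With the longest coding transcript as length, 4 of 8 isoforms kept their rank. The thinning was chosen after seeing the data. Library counts were lowest for *Prkcq* and *Prkch*, down to 63 and 75, where counting alone gives an error of 12.6 and 11.5%. The coefficient of variation of *Prkcq* in saline, at 55.0%, exceeded that.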
